A study of Mus musculus with 20 samples.

Results

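The genes described here regulate heat production and the building of mitochondria, and were chosen by name: Ppargc1a, Ppargc1b, Prdm16, Esrra, Cidea, Elovl3, Ucp2, Tfam, Nrf1 and Ebf2. Of these 10 genes, 8 were found in the deposited table of 14776 genes, while Elovl3 and Ebf2 were not analysed here. Ucp1, the uncoupling protein that defines brown adipocytes, was not analysed here either, so the label of the set as thermogenic rests on known gene function and not on that marker. Expression was measured by RNA sequencing of epididymal white adipose tissue (eWAT), the visceral fat pad beside the testis, from 20 male C57BL/6J mice. The NC group (n = 6) ate normal chow from 6 weeks of age, over the same 14 weeks before the treatment of the other groups. Whether NC mice received gavage is not clearly stated in the sources used here. The HFD group (n = 7) was fed, from 6 weeks of age, a diet in which fat supplied 60% of the energy, for 14 weeks, and then received saline by gavage for 6 more weeks while staying on it. The SZ-A group (n = 7) ate the same diet over the same time and received Ramulus Mori (Sangzhi) alkaloids, an extract of mulberry twig, at 400 mg per kg per day in those last 6 weeks. Beside the diet, the SZ-A and HFD groups share the gavage. If NC mice had no gavage, diet and gavage cannot be told apart in HFD against NC mice.

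In brown and beige fat, the coactivators encoded by Ppargc1a and Ppargc1b bind nuclear receptors and raise the transcription of mitochondrial genes. Their partners include the receptor ERRα, encoded by Esrra, and nuclear respiratory factor 1, encoded by Nrf1, which act on nuclear genes such as Tfam. The Tfam protein enters mitochondria, packages mitochondrial DNA and starts its transcription. Prdm16 directs cells to the brown and beige fate, and Cidea, a lipid droplet protein, is a common marker of those cells. Ucp2 is a relative of Ucp1 in the inner mitochondrial membrane and is known for its expression in macrophages and other immune cells. Epididymal fat of mice is a classical white depot in which thermogenic genes are weakly expressed.

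Values are FPKM as deposited, fragment counts scaled to exon length and library size. Between 13567667 and 19388628 reads per mouse fell on the deposited genes. NC replicate 6 stood apart from all other mice. Its 6 adipocyte markers summed to 185 FPKM, whereas the NC median was 4982, and Adipoq, the adipocyte hormone adiponectin, was at 26.6 FPKM there. Its 5 epithelial markers summed to 1287 FPKM, the highest value of all mice. HFD replicate 1 had the lowest adipocyte sum (974 FPKM) and the highest macrophage sum (7608 FPKM) of its group, and SZ-A replicate 5 had the highest share of reads on genes of mitochondrial DNA (11.6%). Macrophage markers (10 of 10 in the table) summed to 54.8 to 608 FPKM (NC), 2442 to 7608 FPKM (HFD) and 1094 to 3571 FPKM (SZ-A). Adipocyte markers (6 of 6) summed to 185 to 7721 FPKM (NC), 974 to 3906 FPKM (HFD) and 2742 to 8227 FPKM (SZ-A). Epithelial markers (5 of 8) summed to 47.6 to 1287 FPKM (NC), 6.02 to 16.1 FPKM (HFD) and 6.53 to 346 FPKM (SZ-A). Because whole tissue was sequenced, fewer cells of a type and less RNA per cell cannot be told apart.

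**Figure D1:**
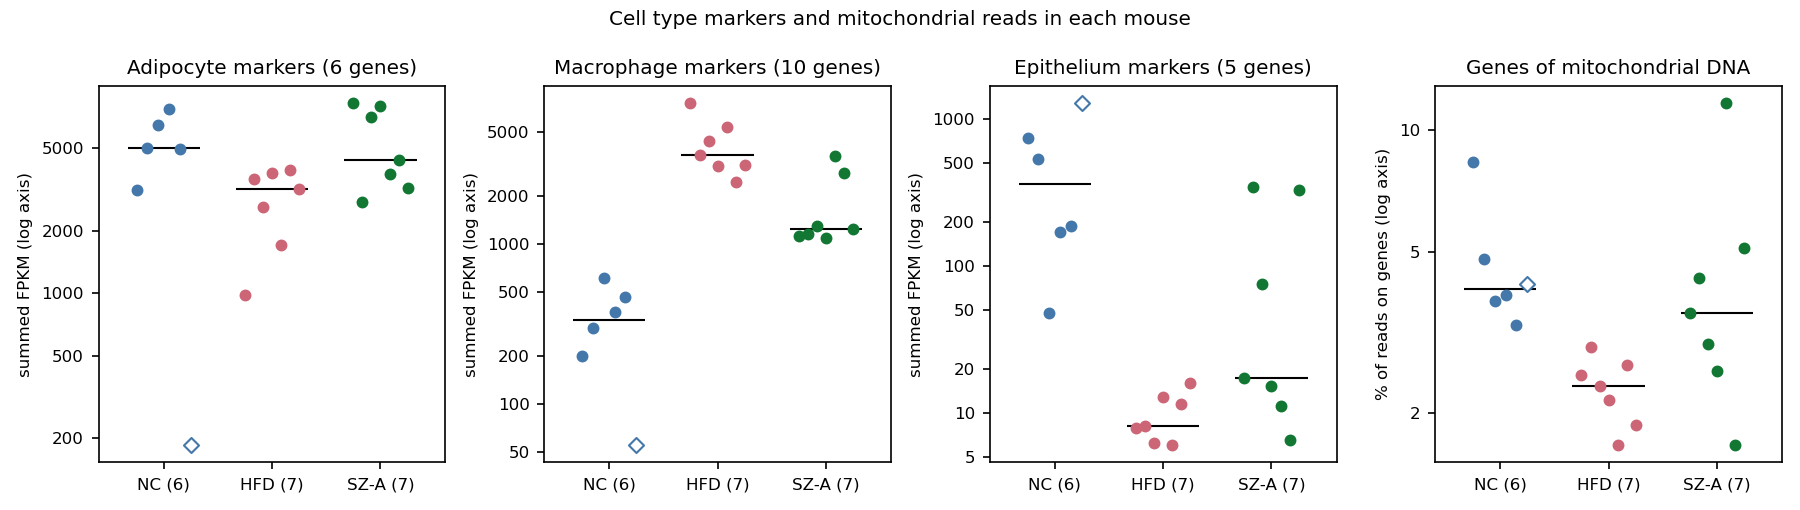
Summed FPKM of adipocyte, macrophage and epithelium markers, and the percentage of reads on genes of mitochondrial DNA, for each mouse by group (log axes; number of mice in parentheses, line at the group median, open diamond for NC replicate 6). NC replicate 6 has the lowest adipocyte sum (185 FPKM), the macrophage sums of NC and HFD mice do not overlap, and neither do their mitochondrial read shares.

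The question of each comparison was how these regulators differed with the high-fat diet (HFD against NC) and with SZ-A treatment on that diet (SZ-A against HFD). The last 2 groups share the diet, and both comparisons share the HFD mice, so their values are given side by side and not as independent results. Of the 8 regulators, 3 had an adjusted p under 0.05 between HFD and NC mice. Ucp2 was higher in HFD mice, while Tfam and Ppargc1a were lower relative to all RNA. Centred on adipocyte markers, neither Tfam nor Ppargc1a differed in an exact permutation test, with or without NC replicate 6. Centring moves every gene by the same amount, and without NC replicate 6 it turned both signs. This count of 3 in 8 (37.5%) stood beside 41.1% of the 14706 genes tested. In single directions, 21.0% of all genes were called higher and 20.1% lower. Without NC replicate 6 the same 3 genes were called, beside 45.2% of all genes. Between SZ-A and HFD mice, 2 of the 8 (25.0%) were called, Ucp2 and Ppargc1b, both lower in SZ-A mice, beside 22.8% of 14695 genes, of which 9.47% were called higher and 13.3% lower. Calls are adjusted p under 0.05 from limma, and log2 fold changes are on the scale of log2(FPKM + 1), which understates the change of genes near or under 1 FPKM.

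**Figure D2:**
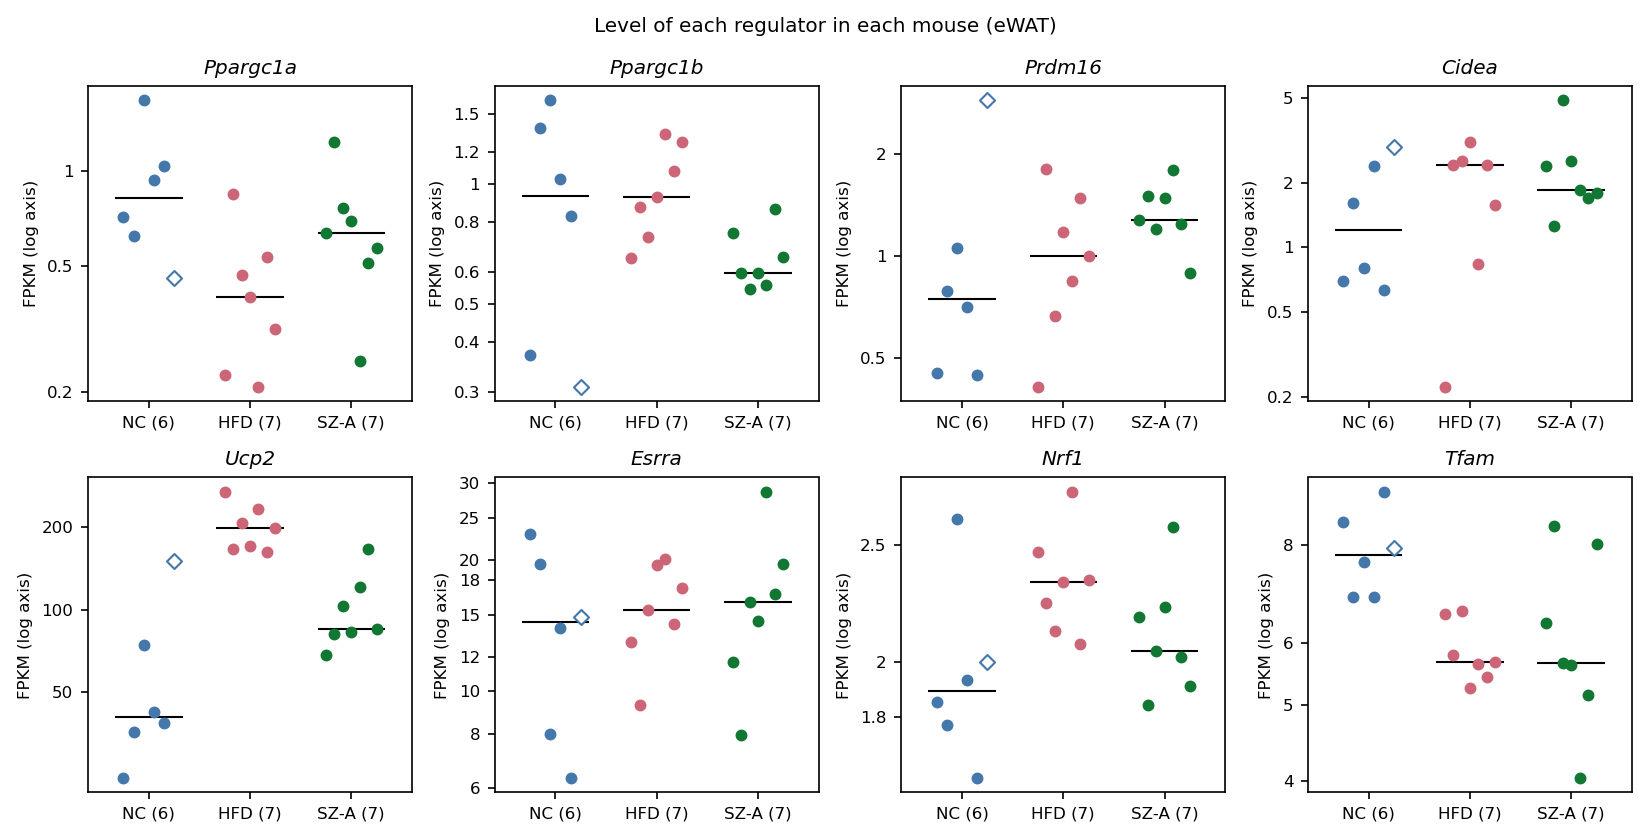
FPKM of each of the 8 regulators in each mouse (log axes; number of mice in parentheses, line at the group median, open diamond for NC replicate 6). The HFD mice lie above all NC mice for Ucp2 and below all NC mice for Tfam, and these 2 groups overlap for the other 6 genes.

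Ppargc1a encodes PGC-1α, the coactivator best known for inducing mitochondrial genes in cold-exposed fat (ENSMUSG00000029167, GRCm38 chr5:51454250-51567726, minus strand). Its FPKM had a lowest value of 0.458, a median of 0.826 and a highest value of 1.68 in NC mice. In HFD mice the lowest, median and highest values were 0.208, 0.399 and 0.846 FPKM, and in SZ-A mice 0.2503, 0.638 and 1.24 FPKM. The HFD mice were mostly lower than the NC mice, but the ranges overlapped, and 23 to 178 reads per mouse stood behind these values. NC mice averaged 0.909 ± 0.432 FPKM (SD, n = 6) and HFD mice 0.429 ± 0.220 FPKM (SD, n = 7), a ratio of 0.472. On the log2 scale, Ppargc1a fell by 0.40 (SE 0.14, 95% CI -0.70 to -0.11, adjusted p = 0.032 from limma) in HFD against NC mice, a sign that stayed after centring on adipocyte markers with all mice (-0.21) and turned when NC replicate 6 was also left out (0.50). Without NC replicate 6 the difference was -0.48 (adjusted p = 0.011 from limma). Across 13 leave-one-out fits the call held in 6. It was lost when NC replicate 3, 4 or 5 was left out, or HFD replicate 1, 4, 5 or 7, where the difference was as small as -0.30 and the adjusted p as high as 0.066 from limma. SZ-A mice averaged 0.668 FPKM. Their difference from HFD mice was 0.22 (SE 0.12, 95% CI -0.04 to 0.47, adjusted p = 0.20 from limma) and was not called.

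Ppargc1b encodes PGC-1β, a coactivator of the same family that is tied to mitochondrial and lipid genes (ENSMUSG00000033871, chromosome 18). Values (lowest, median, highest) were 0.310, 0.929 and 1.62 FPKM in NC, 0.651, 0.928 and 1.33 FPKM in HFD and 0.545, 0.599 and 0.863 FPKM in SZ-A mice. NC mice spanned the whole range of the other groups, with NC replicates 1 and 6 lowest, and the highest SZ-A mice overlapped the lowest HFD mice. Between HFD and NC mice the log2 difference was 0.08 (95% CI -0.27 to 0.43, adjusted p = 0.73 from limma), and it was -0.02 without NC replicate 6. In SZ-A against HFD mice Ppargc1b fell by 0.25 on the log2 scale (SE 0.09, 95% CI -0.44 to -0.07, adjusted p = 0.048 from limma), from a mean of 0.981 ± 0.257 to 0.653 ± 0.116 FPKM (SD, n = 7 each). This call lay at the threshold. Of 14 leave-one-out fits it held in 3, with HFD replicate 1, HFD replicate 3 or SZ-A replicate 6 left out, and over all 14 the adjusted p ranged from 0.029 to 0.105 from limma. It was also lost with all 3 groups in the fit (adjusted p = 0.21 from limma).

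Prdm16 encodes a zinc finger protein that sets the brown and beige fat programme (ENSMUSG00000039410, GRCm38 chr4:154316125-154636873, minus strand). In the order lowest, median and highest, values were 0.445, 0.745 and 2.87 FPKM in NC, 0.411, 1.002 and 1.801 FPKM in HFD and 0.888, 1.27 and 1.79 FPKM in SZ-A mice. The highest NC value was that of NC replicate 6, and the next NC mouse was at 1.05 FPKM. The log2 difference of HFD from NC mice was 0.06 (95% CI -0.42 to 0.54, adjusted p = 0.85 from limma), and 0.26 without NC replicate 6 (adjusted p = 0.20 from limma). SZ-A differed from HFD mice by 0.21 (95% CI -0.09 to 0.51, adjusted p = 0.28 from limma). None of these differences was called. Exons of Prdm16 overlap those of B230104I21Rik on the opposite strand, and whether reads were counted by strand is not given in the sources used here.

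Esrra encodes ERRα, an orphan nuclear receptor that carries the coactivators to genes of respiration (ENSMUSG00000024955, GRCm38 chr19:6910977-6921813, minus strand). The lowest, median and highest levels were 6.33, 14.4 and 23.0 FPKM in NC, 9.32, 15.4 and 20.1 FPKM in HFD and 7.94, 16.0 and 28.7 FPKM in SZ-A mice. The 3 groups overlapped over most of their range, and the highest value was that of SZ-A replicate 5. The log2 difference was 0.20 (95% CI -0.38 to 0.78, adjusted p = 0.58 from limma) for HFD against NC and 0.02 (95% CI -0.46 to 0.51, adjusted p = 0.95 from limma) for SZ-A against HFD. Both intervals include 0, and differences within them are not excluded by the values of these mice. Exons of Esrra overlap those of Trmt112 on the opposite strand, which had a median of 24.7 FPKM over all mice.

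Nrf1 encodes nuclear respiratory factor 1, a transcription factor for respiratory chain genes (ENSMUSG00000058440, GRCm38 chr6:30047988-30153458, plus strand). Levels ran over a lowest, median and highest value of 1.60, 1.89 and 2.63 FPKM in NC, 2.07, 2.33 and 2.77 FPKM in HFD and 1.84, 2.04 and 2.59 FPKM in SZ-A mice. Of the 6 NC mice, 5 were below every HFD mouse and NC replicate 3 was at 2.63 FPKM. The log2 difference of HFD from NC mice was 0.18 (SE 0.09, 95% CI -0.03 to 0.38, adjusted p = 0.15 from limma), and without NC replicate 3 it was 0.24 with an adjusted p of 0.039 from limma. SZ-A differed from HFD mice by -0.10 (95% CI -0.27 to 0.07, adjusted p = 0.38 from limma).

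Tfam encodes mitochondrial transcription factor A (ENSMUSG00000003923, GRCm38 chr10:71225464-71238280, minus strand). Its lowest, median and highest values were 6.85, 7.77 and 9.34 FPKM in NC, 5.25, 5.67 and 6.59 FPKM in HFD and 4.03, 5.65 and 8.44 FPKM in SZ-A mice. Every HFD mouse was below every NC mouse. Groups without overlap, in either direction, were found for 2 of the 8 regulators, Tfam and Ucp2, and for 20.5% of all genes tested. NC mice averaged 7.86 ± 0.978 FPKM (SD, n = 6), HFD mice 5.84 ± 0.521 FPKM (SD, n = 7) and SZ-A mice 6.18 ± 1.57 FPKM (SD, n = 7). Tfam fell by 0.37 on the log2 scale in HFD against NC mice (SE 0.10, 95% CI -0.58 to -0.16, adjusted p = 0.0089 from limma), and by 0.37 without NC replicate 6 (adjusted p = 0.011 from limma), and the sign stayed after centring on adipocyte markers with all mice (-0.18) and turned when NC replicate 6 was also left out (0.61). The call held in 13 of 13 leave-one-out fits. The SZ-A mice were spread more widely than the HFD mice, with SZ-A replicates 2 and 7 above 8 FPKM and SZ-A replicate 5 lowest. SZ-A replicates 2 and 7 also had the highest epithelial marker sums of their group (346 and 328 FPKM). Among NC mice, Tfam was highest in replicate 5 (9.34 FPKM, epithelial sum 189 FPKM). NC replicate 6, with an epithelial sum of 1287 FPKM, was at 7.93 FPKM. The part of epithelial cells in the differences of Tfam was not tested. The log2 difference of SZ-A from HFD mice was 0.04 (SE 0.13, 95% CI -0.23 to 0.32, adjusted p = 0.83 from limma), less than the spread within either group.

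The falls of Tfam and Ppargc1a in HFD mice were measured against all RNA of the tissue. After centring on the mean of the 6 adipocyte markers with all mice, the log2 difference of HFD from NC mice was -0.18 for Tfam (two-sided exact permutation p = 0.88) and -0.21 for Ppargc1a (p = 0.87 by the same exact test). After centring without NC replicate 6, the log2 difference of HFD from NC mice was 0.61 for Tfam (exact permutation test, two-sided, p = 0.23) and 0.50 for Ppargc1a (p = 0.19 by the same exact test), the opposite sign. The adipocyte markers themselves had a median log2 difference of -1.01 between those mice, and of -0.23 with NC replicate 6 included. Centred with all mice, Ppargc1b was at 0.27, Prdm16 at 0.25, Esrra at 0.39, Cidea at 0.37 and Nrf1 at 0.37, with exact permutation p between 0.70 and 0.90. Centred without NC replicate 6, Ppargc1b (0.95), Prdm16 (1.24), Cidea (1.30), Ucp2 (3.25) and Nrf1 (1.15) were higher in HFD mice, with exact permutation p between 0.0013 and 0.016, and Esrra was at 1.21 (p = 0.056 by the same exact test). Centring moves the difference of every gene by the same amount, here the fall of the adipocyte markers. These signs are therefore not particular to the regulators, and no share over all genes was computed. With the epithelial marker score as a covariate, Tfam was at -0.37 with an adjusted p of 0.22 from limma, so that call was lost, while Ppargc1a was at -1.11 (adjusted p = 0.0038 from limma). The epithelial sums of NC and HFD mice did not overlap, so this fit cannot separate the score from the group, and no conclusion is drawn from it.

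The genes that work beside Tfam were taken from a list of 18 genes of mitochondrial DNA maintenance and transcription. Between HFD and NC mice, 8 of the 18 fell and 0 rose (1 rose at an unadjusted p under 0.05, and 0 by voom), with a median log2 difference of -0.32 against -0.04 over all genes tested. Of all genes tested, 20.1% were called lower and 21.0% higher in that comparison. Top1mt, the mitochondrial topoisomerase, fell most, by 0.93 (SE 0.24, adjusted p = 0.0073 from limma). Twnk, the helicase that unwinds mitochondrial DNA, fell by 0.77 (SE 0.15, adjusted p = 0.0011 from limma), with 4.10 to 9.68 FPKM in NC and 2.52 to 3.52 FPKM in HFD mice and no overlap. Tfb2m, the partner of Tfam in starting transcription, fell by 0.54, and Mterf1b, of the termination factor family, also fell by 0.54. Mterf1b has a near-identical copy, Mterf1a, at -0.10 (adjusted p = 0.36 from limma), and reads may have been split between them. Ssbp1, Mterf2, Tfb1m and Mterf4 were the other 4 genes that fell. The count of 8 lower was 8 to 9 with each mouse left out in turn, and 7 without NC replicate 6 and HFD replicate 1 together. These genes were not centred on the adipocyte markers, and the part of epithelial cells in their differences, here or in SZ-A mice, was not tested.

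In SZ-A against HFD mice, 2 genes of that list rose and 0 fell (0 also at an unadjusted p under 0.05 and by voom), with a median of 0.22 against 0.03 over all genes tested. Of all genes tested, 9.47% were called higher there and 13.3% lower, so the count of 2 is near the share over all genes. Twnk rose by 0.48 (SE 0.09, adjusted p = 0.0023 from limma), with each SZ-A mouse (4.03 to 5.55 FPKM) above every HFD mouse. Top1mt rose by 0.72 (SE 0.13, adjusted p = 0.0023 from limma), with 3.32 to 5.59 FPKM in SZ-A and 1.62 to 3.89 FPKM in HFD mice. Both calls held in 14 of 14 leave-one-out fits. Without HFD replicate 1 and SZ-A replicate 5, 4 genes of the list were called higher. Tfam itself was not among the genes that differed between SZ-A and HFD mice.

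**Figure D3:**
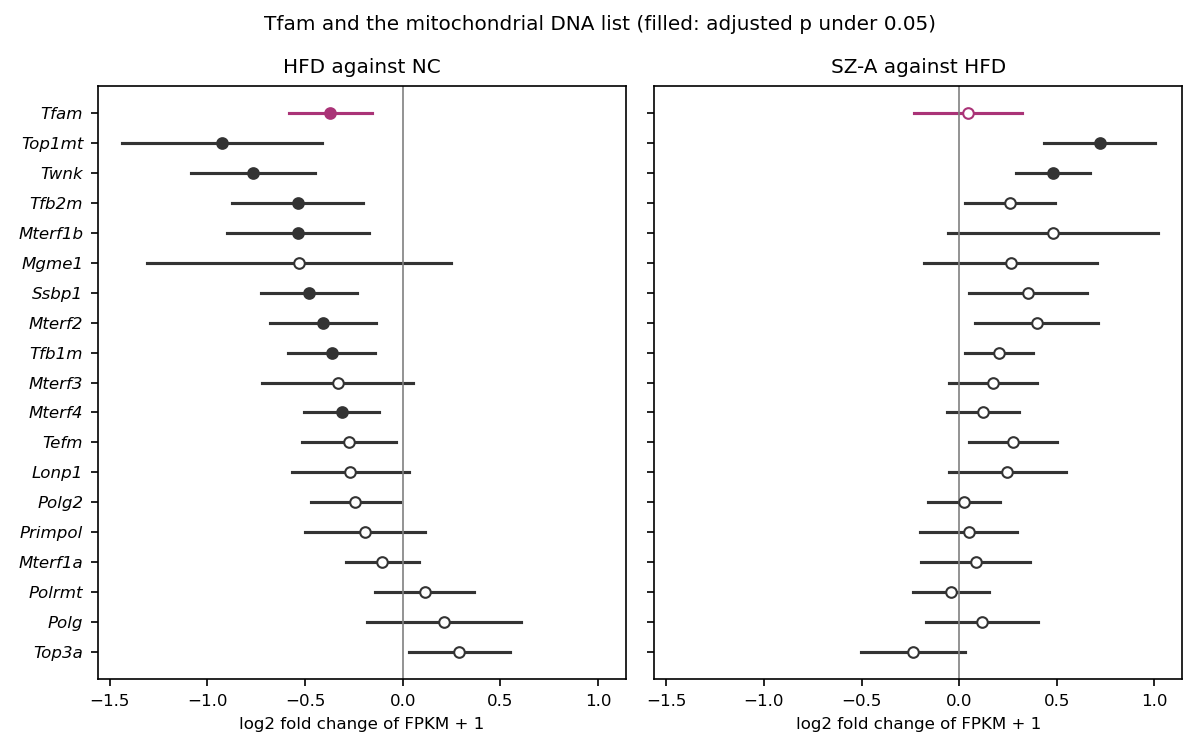
Log2 fold change of FPKM + 1 for Tfam and the 18 genes of mitochondrial DNA maintenance and transcription, with 95% confidence intervals, in HFD against NC (left) and SZ-A against HFD mice (right). Filled points have an adjusted p under 0.05. On the left Tfam and 8 list genes lie below 0 with filled points, and on the right Twnk and Top1mt lie above 0 with filled points while Tfam is near 0.

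Genes of mitochondrial DNA, the template that Tfam acts on, took 4.72% ± 1.84 (SD, n = 6) of the reads of NC mice, 2.30% ± 0.433 (SD, n = 7) of those of HFD mice and 4.54% ± 3.33 (SD, n = 7) of those of SZ-A mice. NC mice ranged from 3.30% to 8.34% and HFD mice from 1.67% to 2.92%, without overlap (two-sided p = 5.83e-04 in an exact permutation test, the lowest value that 6 against 7 mice allow). SZ-A mice ranged from 1.67% to 11.6% and overlapped the HFD mice. SZ-A exceeded HFD mice with p = 0.031 by the same exact permutation test, but without SZ-A replicate 5 the difference dropped from 2.24 to 1.06 percentage points (exact p = 0.054), and leaving out any 1 of HFD replicates 1, 3, 4, 5, 6 or 7 also gave an exact p between 0.053 and 0.080. SZ-A replicate 5 had the highest mitochondrial share and the lowest Tfam and Ppargc1a of its group. Epithelial sums were 746 FPKM in NC replicate 1 (share 8.34%), 1287 FPKM in NC replicate 6 (4.17%) and 11.1 FPKM in SZ-A replicate 5. The part of cell composition in these shares was not tested.

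The start regions of Tfam and of the list genes are shown because 9 of these 19 genes, Tfam among them, fell together in HFD mice. RefSeq promoters of GRCm38.p6, from 250 bases before to 50 after the start, were found for 6 of the 8 regulators and 15 of the 18 list genes. Of 4 motifs searched on both strands, the ETS motif CCGGAAGT, read by GABP and other ETS factors, was found, among the 6 regulators, in Tfam alone. Among the list genes it was found in 5 of 17 promoters (29.4%), those of Tefm, Mterf1a, Mterf1b, Polg and Twnk. Of all 32851 promoters, 3.89% held it. Mterf1b and Twnk fell and are printed below with Tfam, while Tefm, Mterf1a and Polg carry the motif and were not called. Mterf1a and Mterf1b are near-identical copies, so their matches are not independent. The CRE motif TGACGTCA (1.79% of all promoters) was found in Mterf1a and Mterf1b, and the NRF1 motif GCGCATGCG (1.75%) in Tfb2m. The ERRα motif TCAAGGTCA (0.423%) was found in 0 of the 6 regulators and 0 of the 15 list genes. Shown are the 120 bases before the RefSeq start of Tfam (chr10:71238045-71238164, minus strand), Twnk (chr19:45006438-45006557, plus strand) and Mterf1b (chr5:4192247-4192366, plus strand). Each is printed 5′ to 3′ along the gene. Capitals mark the ETS motif, on the opposite strand in Twnk, and, first in Mterf1b, the CRE motif.
Tfam: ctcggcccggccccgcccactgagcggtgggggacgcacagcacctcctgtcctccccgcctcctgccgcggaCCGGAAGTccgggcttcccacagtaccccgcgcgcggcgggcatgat
Twnk: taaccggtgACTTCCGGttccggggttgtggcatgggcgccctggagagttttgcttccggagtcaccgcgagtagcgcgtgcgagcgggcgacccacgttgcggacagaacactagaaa
Mterf1b: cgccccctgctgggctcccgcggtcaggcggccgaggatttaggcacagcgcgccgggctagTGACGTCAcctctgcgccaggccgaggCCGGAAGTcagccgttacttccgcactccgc
In Tfam the ETS motif ended 40 bases before the RefSeq start, in Mterf1b 24 bases and in Twnk 104 bases before it. The gene coordinates of Tfam given above reach to 71238280, upstream of its RefSeq start, so the bases printed for Tfam lie inside them. A match in these letters is a description of the sequence and was not tested for binding.

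Cidea encodes a protein that enlarges lipid droplets and marks brown and beige adipocytes (ENSMUSG00000024526, chromosome 18). Its lowest, median and highest values were 0.632, 1.205 and 2.95 FPKM in NC, 0.223, 2.41 and 3.09 FPKM in HFD and 1.26, 1.85 and 4.86 FPKM in SZ-A mice. The lowest value of all mice was that of HFD replicate 1 and rested on 4 reads. The log2 difference was 0.18 (95% CI -0.47 to 0.83, adjusted p = 0.67 from limma) for HFD against NC and 0.26 (95% CI -0.30 to 0.82, adjusted p = 0.49 from limma) for SZ-A against HFD, each not exceeding their spread.

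Ucp2 was by far the most strongly expressed regulator and the one with the largest differences (ENSMUSG00000033685, GRCm38 chr7:100493337-100502020, plus strand). Its lowest, median and highest values were 24.1, 40.3 and 151 FPKM in NC, 163, 199 and 270 FPKM in HFD and 68.3, 84.7 and 167 FPKM in SZ-A mice. The highest NC value was that of NC replicate 6, the next NC mouse was at 73.8 FPKM, and all HFD mice were above all NC mice. NC mice averaged 60.9 ± 47.4 FPKM (SD, n = 6), HFD mice 202 ± 39.5 FPKM (SD, n = 7) and SZ-A mice 101 ± 33.6 FPKM (SD, n = 7). In HFD against NC mice Ucp2 rose by 1.97 on the log2 scale (SE 0.34, 95% CI 1.23 to 2.70, adjusted p = 4.97e-04 from limma), and by 2.28 without NC replicate 6 (adjusted p = 4.76e-06 from limma). In SZ-A against HFD mice it fell by 1.02 (SE 0.19, 95% CI -1.43 to -0.62, adjusted p = 0.0023 from limma). SZ-A replicate 6, at 167 FPKM, reached into the HFD range, so the groups overlapped, as they did for 8 of 8 regulators in this comparison, where 6.08% of all genes had groups that did not overlap. The calls held in 13 of 13 and in 14 of 14 leave-one-out fits. Centred on the adipocyte markers with all mice, the HFD against NC difference was 2.16 with an exact permutation p of 0.082, which passed the threshold without NC replicate 6.

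Macrophage markers moved with Ucp2. Of the 10 markers, 9 rose in HFD against NC mice and 8 fell in SZ-A against HFD mice, and Adgre1, which encodes the macrophage protein F4/80, averaged 5.94 ± 4.13 FPKM (SD, n = 6) in NC mice, 204 ± 41.9 FPKM (SD, n = 7) in HFD mice and 59.6 ± 30.6 FPKM (SD, n = 7) in SZ-A mice. NC replicate 6 had the highest Ucp2 of its group with the lowest macrophage sum (54.8 FPKM). The part of macrophage number in the differences of Ucp2 was not tested. Exons of Ucp2 overlap those of Dnajb13 on the opposite strand, which had a median of 4.59 FPKM over all mice.

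**Figure D4:**
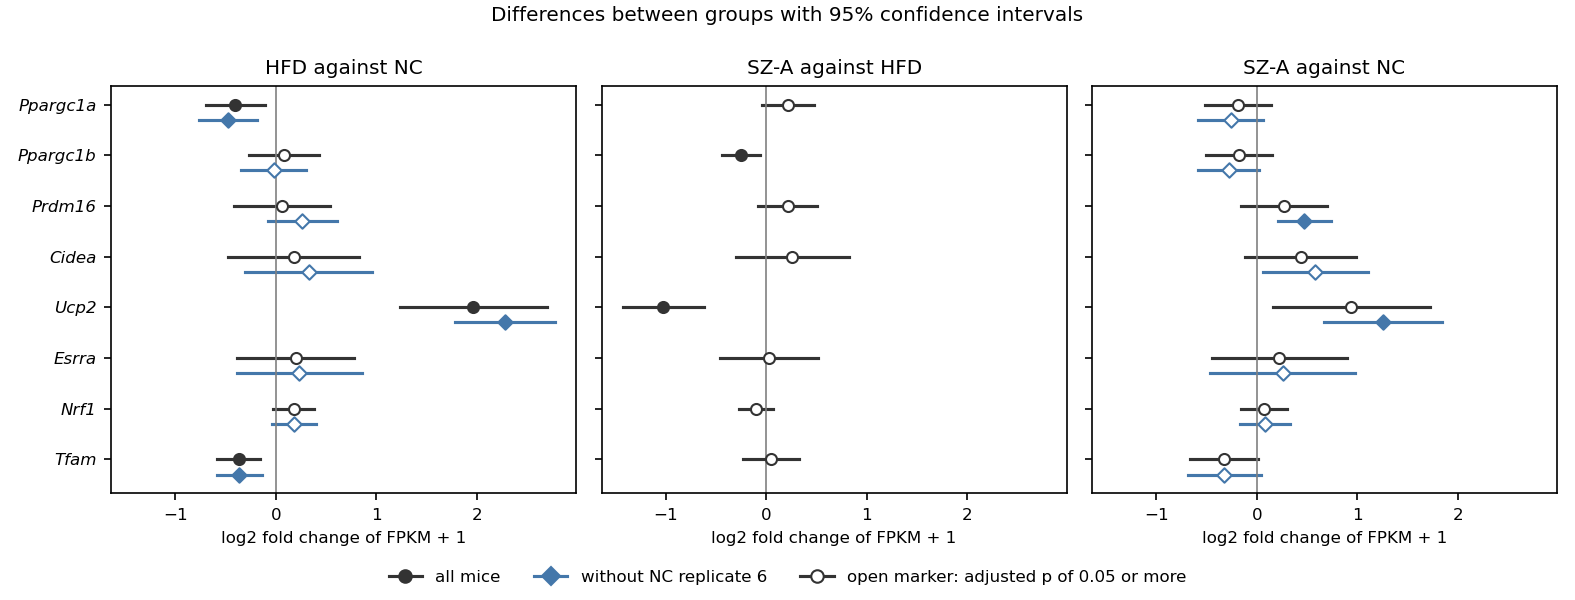
Log2 fold change of FPKM + 1 for the 8 regulators with 95% confidence intervals in 3 comparisons, for all mice (circles) and without NC replicate 6 (diamonds); filled markers have an adjusted p under 0.05 from limma. Ucp2, Tfam and Ppargc1a are filled in HFD against NC, Ucp2 and Ppargc1b in SZ-A against HFD, and in SZ-A against NC markers are filled only without NC replicate 6.

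Between SZ-A and NC mice, 0 of the 8 regulators were called by limma with all mice (4.61% of 14718 genes), 1 had an unadjusted p under 0.05 and 0 were called by voom on the recovered reads. No regulator had groups without overlap, as 3.57% of all genes did. Ucp2 was at 0.94 (95% CI 0.16 to 1.72, adjusted p = 0.17 from limma). Without NC replicate 6, 2 of the 8 (5.50% of all genes) were called, Ucp2 at 1.26 (SE 0.27, adjusted p = 0.015 from limma) and Prdm16 at 0.47 (SE 0.12, adjusted p = 0.039 from limma). Tfam was at -0.33 (95% CI -0.66 to 0.01, adjusted p = 0.28 from limma) and Ppargc1a at -0.19 (95% CI -0.51 to 0.14, adjusted p = 0.54 from limma) with all mice, and neither passed the test without NC replicate 6.

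FPKM are scaled to gene length, so the levels of the regulators can be ordered, with the limit that the exon length used for Ucp2 (6989 bases) joins all its annotated exons. In HFD mice the order by mean FPKM was Ucp2 (202), Esrra (15.6), Tfam (5.84), Nrf1 (2.33), Cidea (1.87), Prdm16 (1.05), Ppargc1b (0.981) and Ppargc1a (0.429). There the first 4 did not overlap with their neighbours down to Nrf1, while Nrf1 and each later gene overlapped with the next. In NC mice the order was the same, with means from 60.9 for Ucp2 to 0.909 for Ppargc1a, and Esrra and Tfam overlapped. In SZ-A mice Cidea (2.34) stood above Nrf1 (2.11) and Ppargc1a (0.668) above Ppargc1b (0.653), and in both pairs the mice overlapped.

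Over the 20 mice, profiles were compared by the root-mean-square difference of standardised log2(FPKM + 1), where 0 is an identical shape, among the 12450 genes that averaged 1 FPKM or more. Ucp2 had the closest neighbours, Gpr153 (0.203), Sept9 (0.240) and St6galnac4 (0.244). Esrra was next, with Cdc34 (0.32), Ubald1 (0.322) and Gm6793 (0.347). Tfam was nearest to Amd1 (0.400), Mrpl1 (0.406) and Gm14539 (0.409), and Ppargc1a to Slc12a2 (0.408), Ptpn4 (0.463) and Sox6 (0.485). Nrf1 was nearest to Il17ra (0.523), Gm7332 (0.582) and Brpf1 (0.585), Ppargc1b to Ap4e1 (0.587), Zbtb43 (0.644) and Fnbp1 (0.653), Prdm16 to Mapk11 (0.602), Ick (0.610) and Gper1 (0.661), and Cidea to Trp53i11 (0.618) and Slc25a1 (0.660). Among the regulators themselves the closest pairs were Ucp2 and Nrf1 (0.859), Prdm16 and Cidea (0.912) and Ppargc1a and Tfam (0.938), each farther apart than any of these neighbours.

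The pathway around the coactivators was read from further lists. Beside the counts of this and each following list stand the shares over all genes tested. In HFD against NC mice 21.0% were called higher and 20.1% lower. In SZ-A against HFD mice 9.47% were called higher and 13.3% lower. Several list counts lie near these shares, and none was tested against them. Among 11 tested nuclear regulators of mitochondrial biogenesis, 5 rose and 1 fell in HFD against NC mice (median 0.26). Perm1, a muscle regulator induced by the coactivators, rose by 1.38 (SE 0.13, adjusted p = 2.56e-06 from limma). Nfe2l2, the factor of the antioxidant response, rose by 0.79. Pprc1, the remaining member of the coactivator family, rose by 0.74 (SE 0.14, adjusted p = 0.0011 from limma), the opposite direction to Ppargc1a. Esrrg, a relative of Esrra, fell by 0.76 (SE 0.22, adjusted p = 0.014 from limma). Gabpa and Gabpb2, subunits of GABP, rose by 0.38 and 0.26, but without NC replicate 6 both calls were lost and 3 genes rose. With SZ-A against HFD, Nfe2l2 fell by 0.63, Pprc1 by 0.41 and Esrrg rose by 0.51, and the calls of Pprc1 and Esrrg held in 4 and 5 of 14 leave-one-out fits.

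Of 14 tested brown and beige fat markers, 1 rose and 4 fell in HFD against NC mice (median -0.14). Adrb3, the β3-adrenergic receptor that starts thermogenesis in fat, fell by 2.76 (SE 0.79, adjusted p = 0.013 from limma), from a mean of 167 ± 131 (SD, n = 6) to 20.4 ± 14.1 FPKM (SD, n = 7). Pank1, of coenzyme A synthesis, fell by 1.92, Gk, the glycerol kinase, by 1.89 and Ppara, a nuclear receptor of fat oxidation, by 0.67. The 5 mice with the highest epithelial marker sums (328 to 1287 FPKM), NC replicates 1, 2 and 6 and SZ-A replicates 2 and 7, had 14.7 to 35.2 FPKM of Gk and 8.90 to 22.6 FPKM of Pank1. NC replicate 3, with the lowest epithelial sum of its group (47.6 FPKM), had 0.700 FPKM of Gk and 1.06 FPKM of Pank1. All 5 epithelial markers fell in HFD against NC mice, and their part in these falls was not tested. Tmem26, a beige cell marker and the 1 gene that rose, rose by 0.30 from at most 0.114 FPKM in NC mice. It averaged 0.070 FPKM in NC and 0.317 FPKM in HFD mice, on 3 to 44 reads per mouse. It thus passed the filter at 0.1 FPKM only through the HFD mice, where it is high, and no conclusion is drawn from that call. On SZ-A, against HFD mice, Adrb3 rose by 1.87 (SE 0.58), with an adjusted p of 0.030 from limma. Ucp3, a relative of Ucp2, rose by 1.37 (SE 0.38; adjusted p = 0.018 from limma), the opposite direction to Ucp2, while Tmem26 fell by 0.23. The call of Adrb3 ended when any of 5 mice was left out, namely replicates 1, 5 and 7 of the HFD group and replicates 1 and 4 of the SZ-A group. Without HFD replicate 1 and SZ-A replicate 5 together, both Adrb3 (adjusted p = 0.085 from limma) and Ucp3 (adjusted p = 0.054 from limma) missed the threshold. Adipocyte markers differed in the same direction as Adrb3 and Ucp3, with a median log2 difference of 0.95 in SZ-A against HFD mice and 0 of 6 called, and their part in these differences was not tested.

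Of 21 tested genes of thermogenic signalling, Adrb3 included, 3 rose and 5 fell in HFD against NC mice (median -0.03), and without NC replicate 6 the counts were 3 and 8. Adcy3, an adenylyl cyclase, rose by 2.36 (SE 0.23, adjusted p = 3.62e-06 from limma), while Bmp7, a growth factor of brown fat, fell by 1.60. Bmp7 was at 24.1 FPKM in NC replicate 6 and 7.54 FPKM in SZ-A replicate 2, each with the highest epithelial marker sum of its group (1287 and 346 FPKM), and at 0.170 FPKM in NC replicate 3. The part of epithelial cells in that fall was not tested. The lower count was 2 without NC replicate 2. Between SZ-A and HFD mice 2 rose beside 2 that fell, with Adcy3 falling by 1.33 and without overlap, Mapk14, a stress kinase, falling by 0.40, and Bmp4 rising by 0.90. Macrophage markers differed in the same direction as Adcy3, with a median log2 difference of 3.26 in HFD against NC and -1.36 in SZ-A against HFD mice. Their part in the differences of Adcy3 was not tested.

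Of 17 brown fat transcription activators, 2 fell in HFD against NC mice, Irf4, a partner of PGC-1α in fat, by 2.30 and Ppara as given above, and limma called 0 of 17 between SZ-A and HFD mice (3 at an unadjusted p under 0.05, 0 by voom). Of 9 repressors, 1 rose and 2 fell in HFD mice. Nrip1, the corepressor RIP140 that holds back Ucp1, fell by 0.83 (SE 0.16, adjusted p = 9.63e-04 from limma), Hdac3 fell by 0.53 and Rbl1, a relative of the retinoblastoma protein, rose by 0.81. Rbl1 fell by 0.60 in SZ-A against HFD mice.

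Of 18 tested genes of respiration and fatty acid oxidation, the known targets of these regulators, 1 rose and 2 fell in HFD against NC mice (median 0.06). Cox4i1, a subunit of complex IV, fell by 0.99 (SE 0.26, adjusted p = 0.0092 from limma) and Sdha, of complex II, by 0.50, while Hadha, of β-oxidation, rose by 0.81 (SE 0.10, adjusted p = 3.86e-05 from limma). The call of Sdha held in 7 of 13 leave-one-out fits. Cox4i1 rose by 0.62 and Hadha fell by 0.45 in SZ-A against HFD mice. Of 15 genes of mitochondrial dynamics and turnover, 3 fell in HFD against NC mice, among them Pink1 by 0.52 and Mfn1 by 0.28, of which Mfn1 held in 13 of 13 such fits and Pink1 in 4. Pink1, a kinase that marks damaged mitochondria, rose by 0.71 in SZ-A against HFD mice, in 7 of 14 such fits.

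Of 8 tested genes of creatine and calcium cycles, which can give heat without Ucp1, 3 rose and 1 fell in HFD against NC mice. Slc6a8, the creatine transporter, rose by 2.54 (SE 0.28), Ckb, a creatine kinase, by 2.24 (SE 0.36) and Gatm, of creatine synthesis, by 2.16 (SE 0.27), each without overlap between groups. Macrophage markers differed in the same direction, with a median log2 difference of 3.26 in HFD against NC mice and -1.36 in SZ-A against HFD mice, and their part in the differences of these 3 genes was not tested. Alpl, a phosphatase of that cycle, fell by 1.47, a call that held in 5 of 13 leave-one-out fits. Against HFD mice, SZ-A mice had lower values of 3 of the 8, where Gatm fell by 1.36, Ckb by 1.21 and Slc6a8 by 0.99, of which Slc6a8 held in 9 of 14 such fits. Of 15 tested relatives of the regulators, 2 rose and 2 fell in HFD mice. Elovl6, a fatty acid elongase of the family of Elovl3, fell by 1.72 and Elovl1 rose by 1.16, beside Esrrg and Pprc1 above. Within NC mice Elovl6 ran from 1.42 to 47.8 FPKM and Alpl from 0.964 to 39.2 FPKM. Epithelial markers also fell in HFD against NC mice, and their part in the falls of Elovl6 and Alpl was not tested. Elovl1 fell by 0.59 in SZ-A against HFD mice, a call that held in 5 of 14 such fits. Cidec, the relative of Cidea in white fat, was at 0.87 (adjusted p = 0.13 from limma) in that comparison.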

How the data were processed

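Poly(A) RNA of eWAT from 20 mice was sequenced as paired-end reads. Reads were aligned by the authors (HISAT2, GRCm38), and the labels name featureCounts 1.5.0-p3. The authors deposited FPKM for 14776 genes, each above 0 in all 20 mice; the filter behind this is not given in the sources used here. Symbols and coordinates came from GENCODE M21 (14770 genes found). Reads were recovered from FPKM, exon length and a step per mouse, and 95.9% to 96.3% of values under 1000 reads were whole within 0.01 reads. The regulators and gene lists were chosen with earlier results of these data known.

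The 2 groups of each comparison were fitted with limma 3.58.1 (R 4.3.3) to log2(FPKM + 1) with a variance trend, keeping genes whose mean reached 0.1 FPKM, and p-values were adjusted over all genes (Benjamini-Hochberg). The fit was tested on simulated data. Named list genes are at most 4 per list and comparison, those with the largest changes under an adjusted p of 0.05, and any relative of the regulators. Each regulator's 3 most similar genes were named, and other genes were chosen after their values were seen. Some genes that this rule names are not reported here. No source states cages or days, so p-values rest on the spread between these mice alone. Python 3.11.15 and matplotlib 3.10.9 were used. Alternatives were another pseudocount, filters, scalings, all 3 groups, voom, a replicate block, an epithelial covariate, centring on adipocyte markers and leaving out mice.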

Additional observations from a re-analysis of the deposited data

Results flagged for a closer look

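In the NC group, the Prdm16 value of NC replicate 6 was flagged because it lay far from the others. It was 2.87 FPKM, while the other 5 NC mice ranged from 0.445 to 1.05 FPKM, and on the log2(FPKM + 1) scale the gap to the next mouse was 0.646 of the group's range. Of 24 groups of values examined, 8 genes in 3 groups, 1 was flagged, and chance flags about 1 in 20. The same mouse had the lowest adipocyte marker sum (185 FPKM) and the highest epithelial marker sum (1287 FPKM).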

How the results depend on the processing

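Of the 8 regulators, the number called between HFD and NC mice was 1 with the replicate number as a block and 1 at the study's threshold, which also asks for a log2 fold change above 1.5. All genes called dropped to 3086 with the epithelial marker score as a covariate and to 1172 at that threshold. Between SZ-A and HFD mice 1 regulator was called with a pseudocount of 0.1, a mean of at least 1 FPKM, all 3 groups, voom, the block or the epithelial covariate, and 0 at the study's threshold. The filter at a mean of 1 FPKM removed Ppargc1b and Ppargc1a before the test, so that setting did not retest the call of Ppargc1b. All genes called were 2089 with all 3 groups and 127 at that threshold. Leaving out each mouse in turn gave 1 to 2 regulators there. Between SZ-A and NC mice it gave 0 to 2 regulators, and 423 to 926 genes with the pair NC replicate 6 and SZ-A replicate 5 included, beside 1527 genes with all 3 groups, 173 with the block, 174 with the epithelial covariate and 263 at the study's threshold.

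Deviations of same-numbered mice from their group means had correlations from -0.41 to 0.58, of both signs. These cannot show whether such mice shared a cage or day, so fits with and without the replicate block are given. Under the replicate block Tfam (adjusted p = 0.060 from limma) and Ppargc1a (adjusted p = 0.10 from limma) missed the threshold between HFD and NC mice. Ppargc1b missed it between SZ-A and HFD mice under that block (adjusted p = 0.089 from limma), with a pseudocount of 0.1 (0.051), voom (0.061), all 3 groups (0.21) and the epithelial covariate (0.11), and called Ucp2 differences kept their side under each of these.

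Signs turned as follows. With the epithelial covariate, values were -0.62 for Ppargc1b and -0.059 for Nrf1 (HFD against NC), -0.15 for Tfam (SZ-A against HFD) and -0.036 for Nrf1 (SZ-A against NC). For HFD against NC that fit cannot separate the score from the group, as the epithelial sums did not overlap. Centred on adipocyte markers, SZ-A against HFD gave -0.72 for Ppargc1a, -0.72 for Prdm16, -0.91 for Esrra, -0.67 for Cidea and -0.89 for Tfam, and SZ-A against NC gave -0.47 for Prdm16, -0.52 for Esrra, -0.31 for Cidea and -0.67 for Nrf1. Without NC replicate 6, an alternative chosen after seeing the data, centring gave 0.50 for Ppargc1a and 0.61 for Tfam (HFD against NC). Centring moves all genes of a comparison by the same amount, so these turns are not particular to the regulators. With mice left out, ranges were -0.022 to 0.18 for Ppargc1b and -0.021 to 0.35 for Prdm16 (HFD against NC), -0.15 to 0.17 for Esrra and -0.027 to 0.15 for Tfam (SZ-A against HFD), and -1.36 to 0.54 percentage points for the mitochondrial read share (SZ-A against NC). The cause was not tested. Fewer than 200 reads behind each value of Ppargc1a, Ppargc1b and Cidea limit their precision.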
